A study of Mus musculus with 6 samples.

Results

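Rab GTPases are small proteins that act as switches of membrane traffic. Each is drawn to particular compartments, where an exchange factor (GEF) loads it with GTP, effectors bind the loaded form and move, tether or fuse vesicles, and a GTPase-activating protein (GAP) ends the cycle. In macrophages they direct endocytosis, the maturation of phagosomes, the recycling of receptors and the release of cytokines. The members described here are the genes of the deposited table whose symbol is Rab followed by a number and, in some, a letter. The table holds 59 of them among 21959 genes, and each symbol occurs once.

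The cells were macrophages grown from the bone marrow of wild-type mice (BMDMs). One group (libraries P051, P052 and P053) had spent 24 h in fresh medium mixed in equal parts with medium that HTR2C-positive alveolar macrophages had conditioned for 48 h. The other group (N051, N052 and N053) had spent the same time in the same mixture, made with medium of HTR2C-negative alveolar macrophages. HTR2C is a serotonin receptor, and the alveolar macrophages, which live in the air spaces of the lung, came from mice of 8 to 12 weeks. All 6 libraries thus share exposure to such medium, and a group without it was not analysed here. Whether the sample numbers mark separate cultures, animals or lots of medium is not stated, so the p-values reflect spread among samples that may be technical.

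The libraries held 12843971 to 16031723 read counts, of which the Rab genes took 0.511%, 0.428% and 0.486% in P051, P052 and P053, against 0.533%, 0.533% and 0.518% in N051, N052 and N053. Macrophage markers bore out the label, and all 8 were tested. Their summed FPKM was 13400 to 18000 with HTR2C-positive and 13300 to 16700 with HTR2C-negative medium. Lyz2 made up most of that sum, at a mean 13230 FPKM over the 6 libraries. Csf1r alone of the 8 had an unadjusted edgeR p under 0.05, higher with HTR2C-positive medium (adjusted p = 0.141). Among markers of other cells, the sum of 12 neutrophil genes was 1360 to 2020 with HTR2C-positive and 1040 to 1550 with HTR2C-negative medium. Ly6g and Cxcr2 were at 0 in every library, and S100a8 made up most of the sum, at a mean 1062 FPKM. Of 9 tested, S100a9, Csf3r and Camp were higher with HTR2C-positive medium and Mmp8 lower, each with an unadjusted edgeR p under 0.05. Of all tested genes, 7.9% were higher and 8.71% lower by that p. The sum of 8 alveolar macrophage genes was 67.6 to 87.8 with HTR2C-positive and 65.9 to 80.1 with HTR2C-negative medium, with Krt79 at 0. The dendritic, T and NK, B cell, fibroblast and epithelial sums were at most 10.9 in any library. N052 and P051, from different groups, were the most alike pair of libraries (r = 0.978 across genes on log2 CPM, and genes are not independent replicates). The slope of log2 expression on transcript GC content was 0.16 to 0.27 per 10 percentage points with HTR2C-positive medium and -0.35 to -0.04 with HTR2C-negative medium, and fold changes after removal of this trend and of that with gene length are given beside the results they alter most. For Csf1r the log2 fold change of 0.63 became 0.32 with the trend removed, and for Csf3r 0.46 became 0.22. Camp went from 0.53 to 0.28 and Mmp8 from -0.48 to -0.20. Each of these then had an unadjusted edgeR p over 0.05. S100a9 went the other way, from 0.36 to 0.54, still with an unadjusted edgeR p under 0.05. In such bulk samples, fewer cells of a type and less RNA per cell cannot be told apart.

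Rab transcripts spanned the range from absent to very abundant. Of the 59 genes, 20 averaged at least 10 FPKM over the 6 libraries, 12 averaged 1 to 10 FPKM and 27 averaged under 1 FPKM. FPKM is the authors' count scaled by gene length and library total, and it is the scale used wherever levels of different genes are set side by side. The 3 most abundant, Rab31, Rab7 and Rab20, made up a mean 51.2% of the summed Rab FPKM. Rab31, which works in traffic between the trans-Golgi network and early endosomes, alone held 20.7% to 31.6% of that sum, depending on the library.

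**Figure D1:**
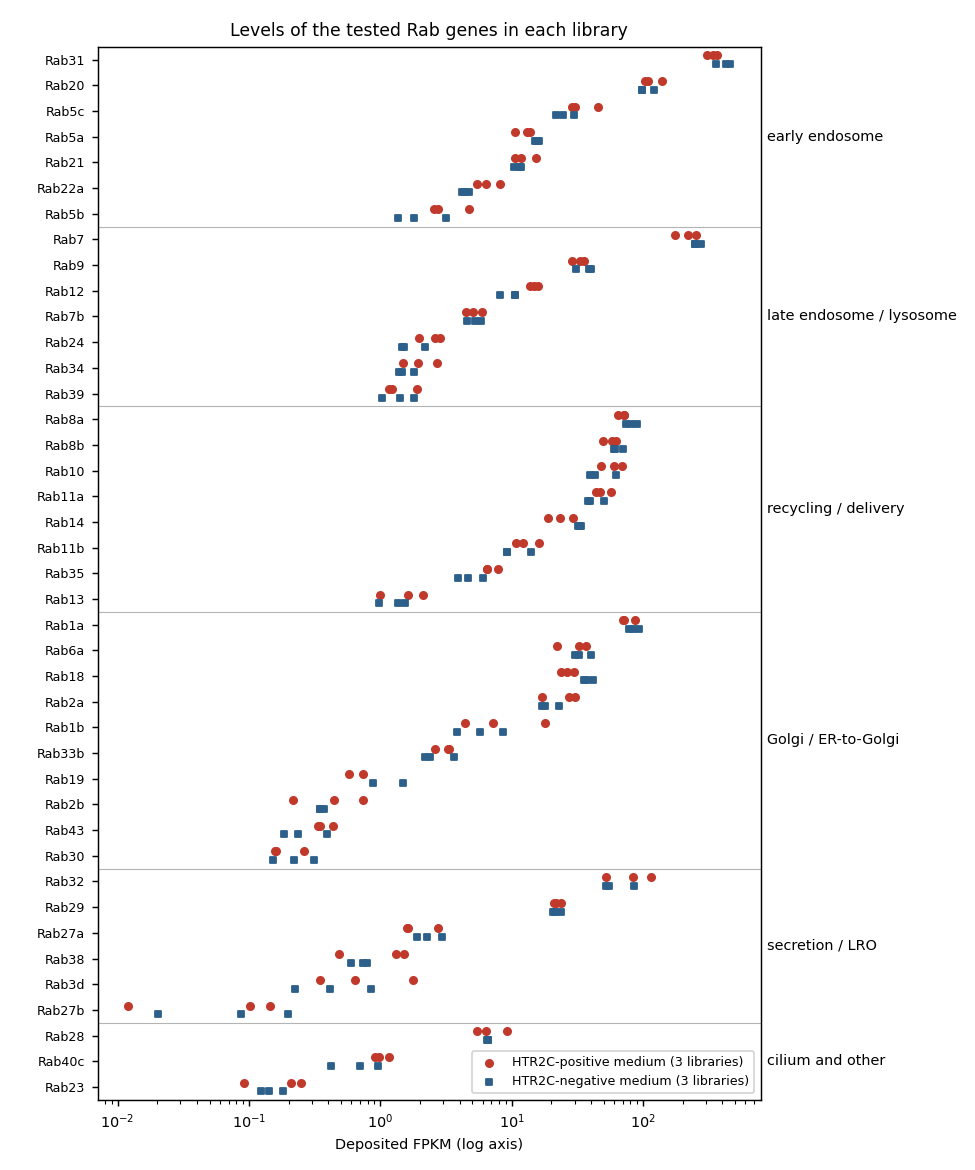
Deposited FPKM of the 41 tested Rab genes (log axis), 1 point per library, with HTR2C-positive medium (red) above HTR2C-negative medium (blue) in each row and rows grouped by compartment (LRO, lysosome-related organelle). Rab31, Rab7 and Rab20 average over 100 FPKM and 9 tested genes under 1 FPKM, and the 2 libraries with Rab19 at 0 (P052 and N053) cannot be drawn on this axis.

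The comparison asked how BMDM transcripts differ between the 2 kinds of medium. Rab18, Rab14, Rab5a, Rab7, Rab31, Rab8b and Rab8a were lower with HTR2C-positive medium, and Rab12 and Rab22a were higher. Each had an unadjusted p under 0.05 in edgeR's quasi-likelihood test, with changes of 0.630-fold (Rab18) to 1.39-fold (Rab12). In edgeR 0 Rab genes passed an adjusted p of 0.05, as did 0% of the 10177 genes tested. DESeq2 called Rab18 (adjusted p = 0.00558) and Rab14 (adjusted p = 0.0110), both lower, where it called 3.87% of all genes (2.56% lower and 1.31% higher). In limma-voom 0 Rab genes passed, with Rab18 at an adjusted p of 0.0918. The share of all genes that limma-voom called is not given here, so this 0 has no background. Without the filter on low counts, edgeR also called Rab18 and Rab14, with 2.84% of all genes.

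The count filter kept 41 of the 59 genes, and 9 of these (22.0%) had an unadjusted p under 0.05, where 16.6% of all tested genes did. The 7 lower ones were 17.1% of the tested Rab genes, against 8.71% lower among all genes, and the 2 higher ones were 4.88%, against 7.9%. All 7 lower genes averaged at least 10 FPKM, as 20 of the Rab genes did. The share of all genes called lower at that level was not counted. The median log2 fold change of the 41 genes (HTR2C-positive minus HTR2C-negative medium) was 0.05, with 23 positive and 18 negative, beside 0.02 over all genes tested. In 9 Rab genes (22.0%) the libraries of the groups did not overlap in CPM (counts scaled to library size with TMM factors), against 22.3% of all genes. Of these, 2 were higher (background 10.9%) and 7 lower (background 11.5%). On the FPKM scale, which uses totals alone, Rab7, Rab8b, Rab1a and Rab29 did overlap, while Rab22a (higher) and Rab8a (lower) did not.

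These counts moved with single libraries. They were 4 lower and 3 higher without P051 (9.05% and 8.07% of all genes), 5 lower and 1 higher without P052 (7.53% and 7.24% of all genes) and 4 lower and 2 higher without P053 (6.78% and 7.09% of all genes). Among the HTR2C-negative libraries, they were 3 lower and 0 higher without N051 (4.32% and 3.74% of all genes), 7 lower and 3 higher without N052 (9.74% and 10.3% of all genes) and 3 lower and 2 higher without N053 (5.38% and 5.14% of all genes). Rab18 passed an adjusted p of 0.05 without N052 (as 1.97% of all genes did), and Rab18 and Rab14 did without P051 (1.8%). Without N052 and P051 together, a choice made after seeing the data, 9 Rab genes passed it, as 10.9% of all genes did. These were the genes named above other than Rab8b, with Rab9 in addition. Scaled to total counts alone, which moved the median of all genes to 0.16, 2 Rab genes were lower (Rab18 and Rab14, against 3.83% of all genes) and 4 higher (Rab5c, Rab22a, Rab12 and Rab35, against 11.3%).

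**Figure D2:**
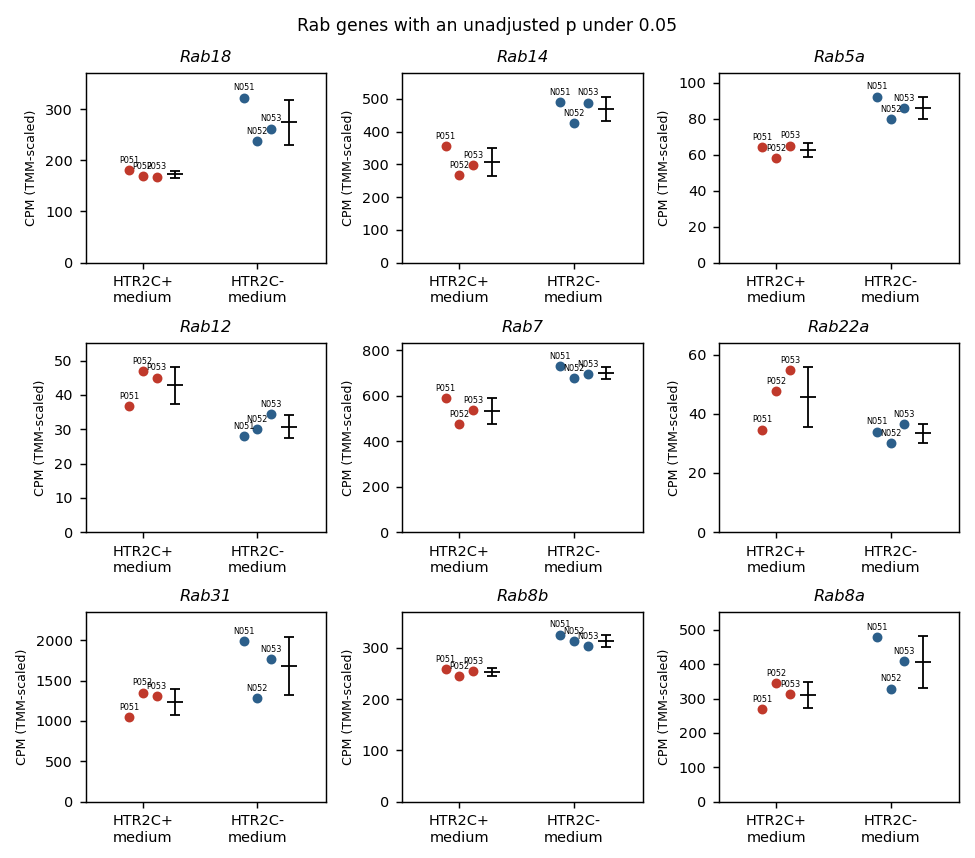
Counts scaled to library size (CPM with TMM factors) in each library for the 9 Rab genes with an unadjusted p under 0.05, with HTR2C-positive medium left of HTR2C-negative medium. Bars give the mean and SD of 3 libraries, and the groups overlap in Rab22a, Rab31 and Rab8a alone.

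The 9 genes lie on 6 chromosomes, with Rab31, Rab5a and Rab12 on chromosome 17. To show what stands upstream of members that differed in opposite directions, promoters of 2 lower genes (Rab14 and Rab5a) and of both higher genes (Rab12 and Rab22a) are given from RefSeq (build GRCm38.p6, not the GRCm39 of the deposited table). Each spans 250 bases before to 50 after the gene's start and is written 5′ to 3′ on the gene's strand: Rab14 at chr2:35201071-35201370 (minus), Rab5a at chr17:53478984-53479283 (plus), Rab12 at chr17:66519621-66519920 (minus) and Rab22a at chr2:173659595-173659894 (plus). Capitals mark matches, on either strand, to the GC box GGGCGG, the CCAAT box CCAAT and the E-box CACGTG, the core of the site that MiT/TFE factors of lysosomal genes bind.
Rab14: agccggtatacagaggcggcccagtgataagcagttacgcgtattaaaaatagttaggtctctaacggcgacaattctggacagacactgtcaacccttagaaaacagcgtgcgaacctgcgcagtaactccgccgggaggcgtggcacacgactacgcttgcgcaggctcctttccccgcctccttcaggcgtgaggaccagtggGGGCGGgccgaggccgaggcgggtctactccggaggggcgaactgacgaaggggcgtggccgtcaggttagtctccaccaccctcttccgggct
Rab5a: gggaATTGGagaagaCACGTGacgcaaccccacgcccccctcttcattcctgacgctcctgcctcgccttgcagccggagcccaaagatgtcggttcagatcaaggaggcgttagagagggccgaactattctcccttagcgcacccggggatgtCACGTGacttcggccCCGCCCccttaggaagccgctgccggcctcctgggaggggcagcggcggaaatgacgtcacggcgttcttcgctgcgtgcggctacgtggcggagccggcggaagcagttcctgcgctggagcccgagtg
Rab12: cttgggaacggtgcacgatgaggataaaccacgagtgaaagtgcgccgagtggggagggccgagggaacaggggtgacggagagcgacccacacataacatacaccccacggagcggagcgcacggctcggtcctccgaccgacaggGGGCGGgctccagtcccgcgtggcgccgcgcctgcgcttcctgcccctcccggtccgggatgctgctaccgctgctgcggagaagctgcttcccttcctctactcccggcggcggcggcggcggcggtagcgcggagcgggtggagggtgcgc
Rab22a: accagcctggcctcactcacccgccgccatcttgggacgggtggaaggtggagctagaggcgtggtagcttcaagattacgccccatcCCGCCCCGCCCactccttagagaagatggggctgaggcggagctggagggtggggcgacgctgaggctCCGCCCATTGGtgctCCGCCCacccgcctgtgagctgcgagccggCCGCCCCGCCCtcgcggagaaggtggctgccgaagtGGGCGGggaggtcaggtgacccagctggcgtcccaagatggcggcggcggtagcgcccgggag
Of the 59 genes, 48 matched an entry, with 60 promoters. A GC box stood in 68.3% of these, against 35.7% of all 32851 promoters of the table, a CCAAT box in 43.3% against 37.4% and an E-box in 6 of 60 against 7.2%. The median GC content was 61.15% for the Rab promoters and 52.7% for all. The Rab5a promoter held 2 E-boxes and the other 3 held 0, while the Rab22a promoter held 7 GC boxes and the other 3 held 1 each. Neither count split these genes by direction. Promoters of Rab7, Rab8a, Rab8b and Rab31, also lower, held 0 E-boxes, and that of Rab12, higher, held 1 GC box as those of Rab14 and Rab5a did. Rab18, also lower, was not among the genes that matched an entry. One promoter of Rab43, which had an unadjusted p over 0.05, held 7 GC boxes as well. A match is a description of letters and not of binding.

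Early endosome genes included the family's most abundant member. Rab31 (ENSMUSG00000056515, chromosome 17, 65958724 to 66079747, GRCm39) had 1044, 1352 and 1304 CPM in P051, P052 and P053, against 1993, 1280 and 1766 CPM in N051, N052 and N053. Among the HTR2C-negative libraries, N052 alone reached into the range of the HTR2C-positive ones. This gave a difference on the log2 scale of -0.45 (SE 0.19, adjusted p = 0.263), with an unadjusted p over 0.05 at -0.32 without P051, -0.48 without P053, -0.31 without N051 and -0.39 without N053. Rab22a (ENSMUSG00000027519, chromosome 2, 173501553 to 173549136), the closest relative of Rab31, acts at early endosomes in the recycling of proteins taken up without clathrin, and differed in the opposite direction. It had 34.6, 47.7 and 54.6 CPM in P051, P052 and P053, against 34.0, 30.0 and 36.4 CPM in N051, N052 and N053. P051 lay inside the range of the HTR2C-negative libraries. On the log2 scale the difference was 0.45 (SE 0.19, adjusted p = 0.259), with an unadjusted p over 0.05 at 0.42 without P052, 0.31 without P053, 0.46 without N051 and 0.38 without N052.

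Rab5 proteins drive the fusion of endocytic vesicles with early endosomes, and 3 genes encode them. Rab5a (ENSMUSG00000017831, chromosome 17, 53786262 to 53814708) had 64.0, 57.8 and 65.0 CPM in P051, P052 and P053, against 92.2, 79.8 and 85.6 CPM in N051, N052 and N053. Each HTR2C-positive library was below each HTR2C-negative one. The log2 fold change was -0.46 (SE 0.14, adjusted p = 0.155), and it ran from -0.51 to -0.41, each with an unadjusted p under 0.05, when single libraries were left out. Rab5c had 88.0, 69.3 and 59.0 CPM in P051, P052 and P053, against 53.7, 61.2 and 57.8 CPM in N051, N052 and N053. Its groups overlapped, with a difference on the log2 scale of 0.33 (SE 0.17, adjusted p = 0.355). Rab5b, the least abundant of the 3 genes, had a difference on the log2 scale of 0.54 (SE 0.28, adjusted p = 0.356). Rab20, an endosomal Rab linked to phagosome maturation in macrophages, averaged 155 ± 15.5 CPM with HTR2C-positive and 153 ± 6.29 CPM with HTR2C-negative medium (SD, n = 3 each). Relative to HTR2C-negative medium, the log2 fold change was 0.02 (SE 0.14), and -0.29 with the trend removed. Rab21, which acts in integrin uptake, had a log2 fold change of 0.02 (SE 0.17), or 0.24 with the trend removed. The summed FPKM of the 7 early endosome genes was 527.6, 505.2 and 541.2 in P051, P052 and P053, against 610.6, 541.1 and 585.2 in N051, N052 and N053, so P053 and N052 were nearly level.

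Among genes of late endosomes, lysosomes and autophagosomes, Rab7 and Rab12 differed in opposite directions. Rab7 (ENSMUSG00000079477, chromosome 6, 87976088 to 88022252), the Rab of late endosomes that prepares them and phagosomes for fusion with lysosomes, had 589, 474 and 537 CPM in P051, P052 and P053, against 731, 679 and 695 CPM in N051, N052 and N053. These groups did not overlap. This gave a difference on the log2 scale of -0.40 (SE 0.15, adjusted p = 0.216), with an unadjusted p over 0.05 at -0.32 without P052, -0.39 without P053, -0.37 without N051 and -0.39 without N053. Rab12 (ENSMUSG00000023460, chromosome 17, 66801507 to 66826724), which sends transferrin receptor from recycling endosomes to lysosomes, had 36.8, 46.9 and 45.0 CPM in P051, P052 and P053, against 27.9, 30.1 and 34.4 CPM in N051, N052 and N053. All HTR2C-positive libraries were above all HTR2C-negative ones. The log2 fold change was 0.48 (SE 0.17, adjusted p = 0.191), with an unadjusted p over 0.05 at 0.41 without P052 and 0.41 without N051. Rab9, which returns mannose 6-phosphate receptors from late endosomes to the Golgi, had 55.2, 52.02 and 54.3 CPM in P051, P052 and P053, against 78.9, 51.2 and 72.4 CPM in N051, N052 and N053. N052 was the lowest of all 6 libraries, and the log2 fold change was -0.32 (SE 0.17, adjusted p = 0.368), or -0.10 with the trend removed. Rab7b, Rab24, Rab34 and Rab39 had log2 fold changes of -0.17 (Rab7b) to 0.39 (Rab24), each with an unadjusted p over 0.05. With the trend removed they were at -0.19, 0.12, -0.17 and 0.24. Rab24, a Rab of autophagy, overlaps Prelid1 on the opposite strand by 1447 bases, and whether counting used strand is unknown here. The same holds for Rab2b with Tox4 (400 bases), Rab6a with Mrpl48 (892 bases) and Rab5a with Pp2d1 (221 bases). In a library Prelid1 reached 1259 counts, Tox4 1135, Mrpl48 334 and Pp2d1 14. Rab43 overlaps Gm45140 on the same strand by 23304 bases, and Gm45140 had at most 5 counts in a library. Rab24 had at most 90 counts and Rab2b at most 48, and whether these hold reads of the overlapping gene was not tested.

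Recycling and delivery to the plasma membrane involve several abundant members. Rab14 (ENSMUSG00000026878, chromosome 2, 35070217 to 35091132), which acts between the trans-Golgi network, endosomes and phagosomes, had 355, 268 and 299 CPM in P051, P052 and P053, against 489.6, 426 and 489 CPM in N051, N052 and N053. The groups were apart. On the log2 scale the difference was -0.61 (SE 0.16, adjusted p = 0.109), and it ran from -0.70 to -0.52, each with an unadjusted p under 0.05, when single libraries were left out. Across the alternatives the adjusted p of Rab14 was 5.98e-05 to 0.784. The lowest came without N052 and P051, a choice made after seeing the data, and the lowest of the others was 0.011 with DESeq2. Rab8a (ENSMUSG00000003037, chromosome 8, 72915044 to 72937748) and Rab8b (ENSMUSG00000036943, chromosome 9, 66750946 to 66826969) carry cargo from the Golgi and recycling endosomes to the surface. Rab8a had 269, 346 and 314 CPM in P051, P052 and P053, against 479.6, 329 and 409 CPM in N051, N052 and N053, so that N052 lay below P052. Relative to HTR2C-negative medium, the log2 fold change was -0.39 (SE 0.17, adjusted p = 0.278), with an unadjusted p over 0.05 at -0.28 without P051, -0.39 without P053, -0.26 without N051 and -0.37 without N053. Rab8b had 259, 244 and 256 CPM in P051, P052 and P053, against 326, 313 and 303 CPM in N051, N052 and N053, a narrow but complete separation. Its log2 fold change was -0.31 (SE 0.14, adjusted p = 0.278), with an unadjusted p over 0.05 when any 1 of the 6 libraries was left out, and -0.03 with the trend removed.

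Of the other tested recycling Rabs, all had an unadjusted p over 0.05. Rab11a, the Rab of the recycling endosome, had a log2 fold change of 0.07 (SE 0.15) and Rab11b one of 0.14 (SE 0.17), or 0.43 and 0.14 with the trend removed. Rab10, which delivers receptors including TLR4 to the surface of macrophages, averaged 195 ± 21.7 CPM with HTR2C-positive and 175 ± 28.9 CPM with HTR2C-negative medium (SD, n = 3 each). This gave a log2 fold change of 0.16 (SE 0.16). Rab35, of a fast recycling route, had 19.8, 18.9 and 17.3 CPM in P051, P052 and P053, against 12.6, 16.2 and 14.1 CPM in N051, N052 and N053. On the log2 scale the difference was 0.38 (SE 0.19, adjusted p = 0.327), with an unadjusted p over 0.05 although the groups did not overlap, and 0.16 with the trend removed. Rab4a and Rab4b, other well-known recycling genes, had at most 14 and 9 counts in a library.

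Rab18 had the smallest p of the family. This gene (ENSMUSG00000073639, chromosome 18, 6733905 to 6794429), whose protein sits on the endoplasmic reticulum and on lipid droplets, had 180.3, 169.5 and 168 CPM in P051, P052 and P053, against 323, 238 and 262 CPM in N051, N052 and N053. The HTR2C-positive libraries lay close together and below all others. The log2 fold change was -0.67 (SE 0.16, adjusted p = 0.0859), and it ran from -0.76 to -0.54 when single libraries were left out, each with an unadjusted p under 0.05. Across the alternatives its adjusted p was 8.22e-05 to 0.784. Here too the lowest came without N052 and P051, and the lowest of the others was 0.00558 with DESeq2. The other 9 tested genes of the Golgi and of traffic to it had an unadjusted p over 0.05. Rab19 had the most negative log2 fold change, -1.02 (SE 1.1175), at 1.03, 0 and 0.846 CPM in P051, P052 and P053, against 2.65, 1.31 and 0 CPM in N051, N052 and N053. Rab1a, which acts between the endoplasmic reticulum and the Golgi, had 290.2, 279 and 256 CPM in P051, P052 and P053, against 338, 332 and 339.7 CPM in N051, N052 and N053. The groups did not overlap, yet the log2 fold change was -0.29 (SE 0.14, adjusted p = 0.314), and -0.01 with the trend removed. Its paralog Rab1b had 36.0, 10.4 and 15.2 CPM in P051, P052 and P053, against 9.81, 18.4 and 13.9 CPM in N051, N052 and N053, so that P051 stood well above the rest. The log2 fold change of 0.54 (SE 0.38) was -0.12 without P051 and 0.11 with the trend removed. Rab6a, of traffic within and from the Golgi, had a log2 fold change of -0.32 (SE 0.17) and Rab2a one of 0.24 (SE 0.24), or -0.12 and 0.51 with the trend removed.

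Rabs of regulated secretion and lysosome-related organelles had 0 members with an unadjusted p under 0.05 among 6 tested, where 16.6% of all genes had one. Rab32, which with Rab38 serves lysosome-related organelles and the defence of macrophages against Salmonella, had 238, 127 and 182 CPM in P051, P052 and P053, against 146, 189 and 132 CPM in N051, N052 and N053. The groups interleaved, with a log2 fold change of 0.23 (SE 0.22). Rab29 had 28.4, 31.9 and 32.5 CPM in P051, P052 and P053, against 34.5, 32.7 and 33.9 CPM in N051, N052 and N053. Relative to HTR2C-negative medium, the log2 fold change was -0.12 (SE 0.16) although the groups did not overlap. Rab27a, the Rab of secretory granules and exosomes, averaged 7.33 ± 2.28 CPM with HTR2C-positive and 9.81 ± 3.01 CPM with HTR2C-negative medium (SD, n = 3 each). Rab23, of the cilium, was low at 1.42 ± 0.579 CPM with HTR2C-positive and 1.30 ± 0.326 CPM with HTR2C-negative medium (SD, n = 3 each), and Rab28 had a log2 fold change of -0.08 (SE 0.19), or 0.29 with the trend removed.

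The 18 genes that did not pass the filter had at most 21 counts in a library. Of these, 5 (Rab9b, Rab39b, Rab17, Rab25 and Rab3c) had 0 counts in every library, which allows up to 3 counts, or 0.187 to 0.234 CPM depending on the library, for counting error only. Rab17 and Rab25 are Rabs of epithelia and Rab3c is one of neurons and endocrine cells. The other 13 were Rab3a, Rab3b, Rab4a, Rab4b, Rab6b, Rab15, Rab26, Rab33a, Rab36, Rab37, Rab40b, Rab42 and Rab44. Rab44 had 3 to 21 counts, and Rab15 had 0 in the 3 HTR2C-positive libraries, against 0, 10 and 9 in N051, N052 and N053. Rab15 overlaps Fntb on the opposite strand by 24949 bases, and Fntb had at most 19 counts in a library.

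**Figure D3:**
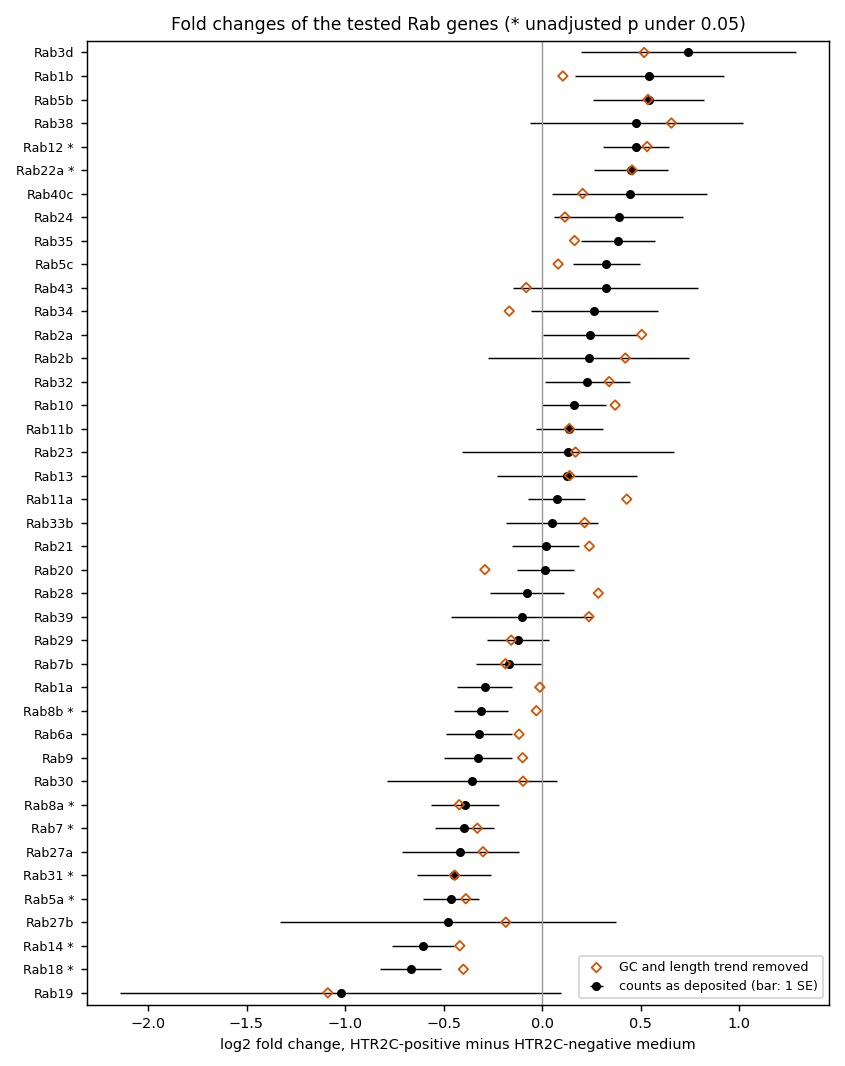
Log2 fold change (HTR2C-positive minus HTR2C-negative medium) of the 41 tested Rab genes from the counts as deposited, with 1 SE (black), and after removal of each library's GC and length trend (orange diamonds). Rab18 and Rab14 are the lowest of the genes marked by an asterisk (unadjusted p under 0.05), and Rab8b lies at -0.31 and, with the trend removed, at -0.03.

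Fold changes of Rab genes followed the GC content of their transcripts, along the slopes over all tested genes given above. Over the 41 genes, whose GC content ran from 36.8% to 59.5%, Pearson's r was 0.46 and Spearman's rho 0.45, given as a description since all fold changes share the same 6 libraries. After each library's GC and length trend was removed, r was -0.09 and rho -0.14. That trend was fitted over all genes, so its removal takes out such a correlation by design. The slopes of the groups did not overlap, so an effect of the medium and of GC content cannot be told apart. Of the 9 genes, 8 (6 lower and 2 higher) still had an unadjusted p under 0.05 in that fit, in which 5.45% of all genes were lower and 4.34% higher. Rab31, Rab8a and Rab22a hardly moved, at -0.44, -0.42 and 0.46. In that fit the log2 fold change was -0.40 for Rab18, -0.42 for Rab14, -0.39 for Rab5a, -0.33 for Rab7 and 0.53 for Rab12. Rab8b no longer passed, and 2 genes passed there but not with the counts as deposited, Rab11a (0.43) and Rab10 (0.37).

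**Figure D4:**
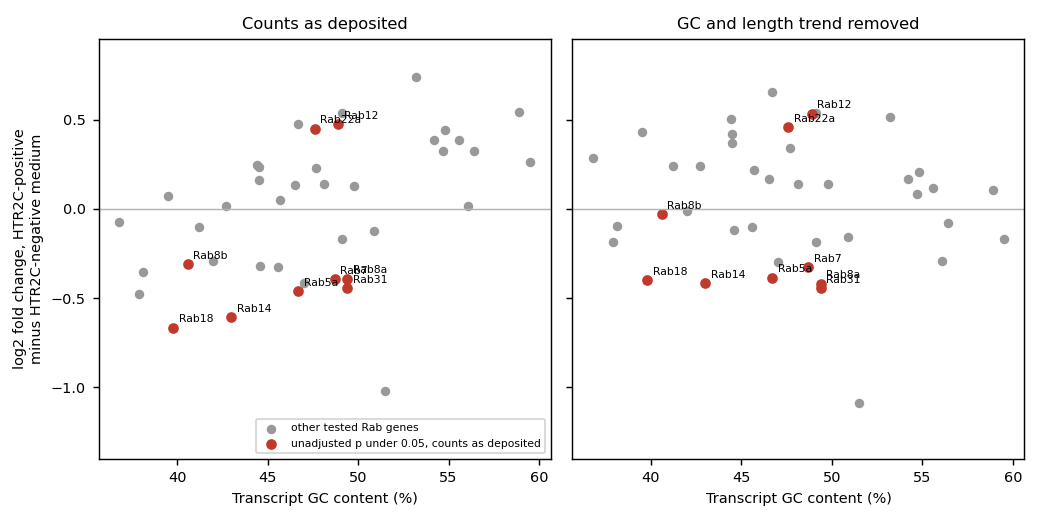
Log2 fold change (HTR2C-positive minus HTR2C-negative medium) of the 41 tested Rab genes against transcript GC content in percent, from the counts as deposited (left) and after the GC and length trend was removed (right). On the left low-GC genes tend to lie lower (Pearson's r 0.46). On the right (-0.09) the fit has taken out such a trend by design, and Rab18, Rab14 and Rab5a lie between -0.42 and -0.39.

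Within families of close paralogs, the balance between copies was read inside each library, which does not depend on how libraries are scaled. In 9 families with at least 2 tested members, 13 shares of summed FPKM were compared by an exact two-sided permutation test. With 3 libraries against 3 its smallest p is 0.1, so 0.05 was out of reach. Of Rab5 FPKM, Rab5a made up 21.5%, 24.2% and 29.5% in P051, P052 and P053, against 40.2%, 32.9% and 36.5% in N051, N052 and N053. All 3 HTR2C-positive libraries were below all 3 HTR2C-negative ones, a difference of -11.45 percentage points (exact permutation p = 0.1, adjusted p = 0.325). Rab5c took 71.0%, 69.9% and 64.3% in P051, P052 and P053, against 56.2%, 60.6% and 59.2% in N051, N052 and N053, a difference of 9.74 percentage points (exact permutation p = 0.1, adjusted p = 0.325). Rab5c transcripts have a GC content of 54.7% and Rab5a transcripts one of 46.7%, and with the trend removed their log2 fold changes were 0.08 and -0.39.

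Rab22a was a small part of its pair with Rab31, at 1.73%, 1.83% and 2.17% in P051, P052 and P053, against 0.89%, 1.22% and 1.08% in N051, N052 and N053. The groups were again apart, by 0.84 percentage points (exact permutation p = 0.1, adjusted p = 0.325), and GC content was 47.6% for Rab22a and 49.4% for Rab31. Of its pair with Rab7b, Rab7 held 97.7% ± 0.12 with HTR2C-positive and 98.0% ± 0.15 with HTR2C-negative medium (SD, n = 3 each). These groups did not overlap either, with a difference of -0.33 percentage points (exact permutation p = 0.1, adjusted p = 0.325). Both Rab8 genes were lower together, and Rab8a held 55.2% ± 3.82 with HTR2C-positive and 56.3% ± 4.30 with HTR2C-negative medium (SD, n = 3 each), a difference smaller than the SD of either group. In the Rab11 family, Rab11a held 79.2% ± 1.77 with HTR2C-positive and 80.04% ± 1.67 with HTR2C-negative medium (SD, n = 3 each). In the Rab1 family, Rab1a held 89.3% ± 5.83 with HTR2C-positive and 93.5% ± 1.93 with HTR2C-negative medium (SD, n = 3 each). How reads matching several copies were counted is unknown here, so the shares carry that uncertainty.

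**Figure D5:**
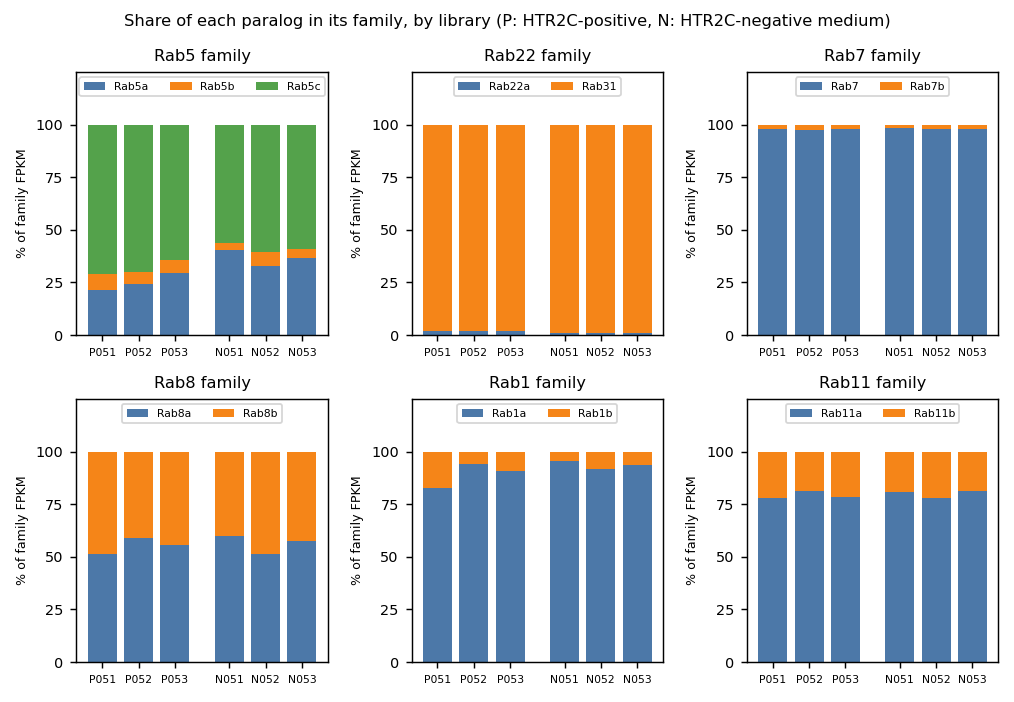
Share of each paralog, in percent of its family's summed FPKM, in each library, with the HTR2C-positive libraries (P051 to P053) left of the HTR2C-negative ones (N051 to N053). Rab5a takes 21.5% to 29.5% with HTR2C-positive and 32.9% to 40.2% with HTR2C-negative medium, while the Rab8, Rab1 and Rab11 families overlap between groups.

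The proteins that modify, load, unload and answer to Rabs were read from 4 further lists. Genes of prenylation and membrane extraction equip Rabs with their lipid anchor and shuttle them through the cytosol. All 8 genes of that list were tested, of which 1 was higher and 0 were lower by unadjusted p (12.5%, against 16.6% of all genes). Their median log2 fold change was -0.02. Rabac1, which encodes the prenylated Rab acceptor, averaged 35.3 ± 10.3 CPM with HTR2C-positive and 17.8 ± 5.90 CPM with HTR2C-negative medium (SD, n = 3 each). Its log2 fold change was 0.98 (SE 0.26, adjusted p = 0.113), and 0.53 with the trend removed. Gdi2, which extracts Rabs from membranes, had a log2 fold change of -0.16 (SE 0.15), and Rabggtb, a subunit of the prenylating enzyme, one of -0.11 (SE 0.18). With the trend removed these were 0.00 and 0.15.

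Of 32 tested exchange factors, 2 were higher and 1 lower (9.38%, against 16.6% of all genes), with a median log2 fold change of 0.19. Dennd1b, an exchange factor of Rab35, averaged 40.9 ± 2.64 CPM with HTR2C-positive and 61.5 ± 3.60 CPM with HTR2C-negative medium (SD, n = 3 each). On the log2 scale the difference was -0.59 (SE 0.15, adjusted p = 0.0971), and -0.32 with the trend removed. Dennd4b, which acts on Rab10, and Rin3, which acts on Rab5 and Rab31, had log2 fold changes of 0.67 (SE 0.22) and 0.62 (SE 0.22), and 0.17 and 0.10 with the trend removed. Sbf1, also on the list, was at 0.80 (SE 0.38, adjusted p = 0.309) on the log2 scale, and at 0.30 with the trend removed.

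Of 32 tested TBC-domain and other GAP genes, 5 were higher and 2 lower (21.9%, against 16.6% of all genes), with a median of 0.19. Tbck, which encodes a TBC-domain protein with a kinase-like domain, averaged 154 ± 6.91 CPM with HTR2C-positive and 273 ± 58.9 CPM with HTR2C-negative medium (SD, n = 3 each). Relative to HTR2C-negative medium, the log2 fold change was -0.83 (SE 0.17, adjusted p = 0.0805), and -0.72 with the trend removed. Tbc1d13, a GAP for Rab35, averaged 30.9 ± 1.23 CPM with HTR2C-positive and 18.5 ± 4.13 CPM with HTR2C-negative medium (SD, n = 3 each). Its log2 fold change was 0.74 (SE 0.19, adjusted p = 0.109), and 0.37 with the trend removed. Tbc1d9b had a log2 fold change of 0.45 (SE 0.15), and Tbc1d23, an adaptor of endosome-to-Golgi traffic, one of -0.46 (SE 0.17). With the trend removed these were 0.08 and -0.25.

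Of 43 tested effectors, 5 were higher and 3 lower (18.6%, near the 16.6% of all genes), with a median of 0.18. Plekhm2, an adaptor that couples lysosomes to kinesin, averaged 9.52 ± 0.749 CPM with HTR2C-positive and 4.49 ± 0.312 CPM with HTR2C-negative medium (SD, n = 3 each). This gave a difference on the log2 scale of 1.08 (SE 0.24, adjusted p = 0.0830). With the trend removed it was 0.54. Hook3, a dynein adaptor, had a log2 fold change of -0.52 (SE 0.15), and Ehbp1l1 and Micall2, which bind Rab8 and its relatives, had 0.49 (SE 0.17) and 0.63 (SE 0.22). With the trend removed these 3 were at -0.14, 0.07 and 0.17. Tested exchange factors, GAPs and effectors had a median GC content of 51.6%, 50.65% and 50.9%, above the 47.6% of the Rab genes, and with the trend removed their median fold changes were 0.11, 0.01 and 0.03. In that fit, 1 exchange factor was higher and 1 lower, 1 GAP higher and 1 lower, and 1 effector higher and 3 lower. Of all genes, 4.34% were higher and 5.45% lower there.

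Regulators known to act on the Rab5, Rab7, Rab18, Rab8 and Rab12 proteins were grouped after the members' values were seen. Of 29 such genes, 26 were tested, of which Rin3 was higher and Appl1, a Rab5 effector of signalling endosomes, lower by unadjusted p, against 7.9% higher and 8.71% lower among all genes. For Appl1 the log2 fold change was -0.40 (SE 0.17, adjusted p = 0.266), or -0.17 once the trend was removed. Eea1, the Rab5 effector that tethers early endosomes, had a log2 fold change of -0.18 (SE 0.17), and Rabgef1, an exchange factor of Rab5, one of -0.14 (SE 0.20), or 0.02 and -0.01 with the trend removed. Mon1a, Mon1b and Ccz1, whose products load Rab7, had 0.01 (SE 0.48), 0.30 (SE 0.28) and -0.03 (SE 0.20), or -0.41, 0.12 and 0.19 with the trend removed. Rab3gap1 and Rab3gap2, which together load Rab18, had -0.11 (SE 0.19) and 0.42 (SE 0.27), the second with separated groups. Rab3il1 and Rab3ip, exchange factors of Rab8, had 1.41 (SE 0.67) and 0.66 (SE 0.32), each with an unadjusted p over 0.05 and overlapping groups, while both Rab8 genes were lower. Dennd3, the exchange factor of Rab12, was low, at 1.32 ± 0.539 CPM with HTR2C-positive and 0.543 ± 0.321 CPM with HTR2C-negative medium (SD, n = 3 each). Its groups did not overlap, and its log2 fold change was 1.25 (SE 0.66, adjusted p = 0.365).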

How the data were processed

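Trizol extraction of BMDM RNA and library construction with the VAHTS Universal V6 kit are described per the labels' protocols. Tools named in the submitters' processing notes are fastp, HISAT2, StringTie and edgeR, on build GRCm39, with no versions or settings. Annotation release, strand use and handling of multi-mapped reads were not given in the sources used here. Per the file headers, the deposited table holds raw read counts and FPKM per gene and library. The deposited FPKM equal counts divided by gene length and library total (largest relative difference 3.8e-07).

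Counts were tested in R 4.3.3 with edgeR 4.0.16 (filterByExpr, TMM factors, robust quasi-likelihood test without covariates) over 10177 genes, with Benjamini-Hochberg adjustment at 0.05. Fits were tested on simulated data. GC content came from GENCODE M21 transcripts (10162 of the tested genes), and each library's trend was removed by spline offsets. Alternatives were RLE factors, total counts, other filters, a fit that was not robust, DESeq2 1.42.0, limma-voom (limma 3.58.1), a replicate block and leaving out libraries. Permutation tests used SciPy 1.17.1.

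Genes were named by rule: Rab genes with an unadjusted p under 0.05, the 8 most abundant, their paralogs, and 4 genes of smallest p per list of Rab regulators. One gene that this rule names is not reported here. Other Rab genes and regulators were named after their values were seen. The members and lists were chosen with earlier results of these data known. Of 35 listed exchange factors, 34 were found by symbol. Limits from counts of 0 cover counting error only, as the reads carry no molecular identifiers.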

Additional observations from a re-analysis of the deposited data

How the results depend on the processing

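The 9 Rab genes with an unadjusted p under 0.05 kept their direction under each alternative run, and of these Rab18 and Rab14 also kept that p under each. Log2 fold changes of other genes named by the rule changed sign as follows. Rab20 was at -0.29 with the GC and length trend removed, -0.292 with the replicate block in addition, -0.0239 without N052 and P051, and -0.049 to 0.0767 when single libraries were left out. Rab1b was at -0.0434 with the trend removed and the block, and at -0.1169 to 0.86 when single libraries were left out. Rab29 was at 0.0116 with total counts alone. Rabggtb was at 0.0246 with total counts, 0.15 with the trend removed, 0.14 with the block in addition, and -0.17 to 0.0103 when single libraries were left out. Of genes with values in the text beyond that rule, Rab21, Rab23, Rab28, Rab34, Rab39, Rabgef1, Mon1a, Ccz1, Rab3gap1 and Eea1 changed sign under at least 1 alternative.

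The 7 lower Rab genes (beside 8.71% of all genes) became 2 with total counts alone (3.83%). They became 3 to 7 when single libraries were left out (4.32% to 9.74%). With the replicate block they became 3, and 3 with the block and the trend removed. The 2 higher ones (beside 7.9% of all genes) became 4 with total counts (11.3%) and 4 with the trend removed (4.34%). They became 0 to 3 when single libraries were left out (3.74% to 10.3%), 4 without a filter and 1 with the block. For the block and for no filter, the share of all genes in each direction was not counted, so these counts have no background. Rab genes past an adjusted p of 0.05 (0) became 2 without a filter, 2 with DESeq2, 9 without N052 and P051 and 0 to 2 when single libraries were left out, where all genes (0) became 422, 394, 1107 and 0 to 206. The 1690 genes at an unadjusted p under 0.05 became 995 with the trend removed, 632 with the block in addition, 2433 without N052 and P051, and 847 to 2097 when single libraries were left out. The median of the Rab genes (0.05) was 0.16 with total counts, as that of all genes was, and -0.0475 to 0.0674 when single libraries were left out, the lowest without P051.

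Same-numbered libraries did not deviate together (r = -0.139, -0.215 and 0.048), so they were not treated as pairs, and P051 correlated best with N052 (0.288). When single libraries were left out, differences in paralog share ran from -1.02 to 0.70 points for Rab2a, -3.58 to 0.79 for Rab8a, -2.21 to 1.83 for Rab27a, -0.02 to 0.35 for Rab38, -13.65 to -9.60 for Rab5a and 0.71 to 0.94 for Rab22a. By unadjusted p and without single libraries, 1 to 6 exchange factors were higher and 1 to 2 lower. Of the GAPs 2 to 5 were higher and 1 to 3 lower, and of the effectors 3 to 5 were higher and 1 to 4 lower. In those fits 3.74% to 10.3% of all genes were higher and 4.32% to 9.74% lower. Fits without a library hold fewer samples, and the cause was not tested for any of the counts that moved. Depth limits the 18 genes with at most 21 counts per library.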
